A study of Mus musculus with 96 samples.

Results

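Zp1, Zp2 and Zp3, which encode the glycoproteins of the mouse zona pellucida, were followed together with Astl, Izumo1r and Cd9, which act where sperm meet the egg, in single-cell RNA-seq libraries of mouse 2-cell embryos and oocytes. The 6 genes were taken as a named list from the 36935 gene symbols of the deposited raw-count table, and all 6 reached 10 counts per 1000000 (CPM) in both kinds of library described below. The libraries were labelled as 4 groups of 22 picked cells each: 2-cell blastomeres of genotype Padi6MatP620A/+, whose mothers carried the variant, 2-cell blastomeres of genotype Padi6+/+, MII oocytes (arrested at metaphase II) of genotype Padi6P620A/P620A, and MII oocytes of genotype Padi6+/+. A further 8 were labelled negative controls. Females aged 4 to 8 weeks were superovulated with PMSG and hCG, and eggs were collected about 13 hours after hCG into hyaluronidase. The 2-cell embryos came from in vitro fertilisation with sperm of males aged 8 to 12 weeks. Per the labels' protocols, blastomeres were picked singly after their zona had been dissolved, without the polar body. The strain background and the animal each cell came from are not given in the sources used here.

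The stage labels were not used to group libraries, because they disagree with the RNA. Of 96 libraries, 79 had at least 100000 counts and 4000 detected genes. Libraries with at least 100 CPM of Mos, the kinase that holds the egg at metaphase II, are called oocyte-like. Libraries below that level with a count of Zfp352, a gene switched on in the mouse 2-cell embryo, are called 2-cell-like. There were 39 of each and 1 with neither. Nearest to the Mos level lay 63.3 CPM below it and 200.6 CPM above it, while 1, 3 and 5 were the lowest Zfp352 counts among 2-cell-like libraries. The 2-cell-like libraries were labelled mutant oocyte in 19 cases, wild-type oocyte in 7, mutant 2-cell in 11, wild-type 2-cell in 0 and negative control in 2. The oocyte-like libraries were labelled mutant oocyte in 0 cases, wild-type oocyte in 12, mutant 2-cell in 9, wild-type 2-cell in 14 and negative control in 4. The class went against the stage label in 49 of 73 kept libraries labelled as cells. The classes were made from the same RNA, and each library labelled as a cell is 1 cell of an unnamed animal. Each class therefore counts as 1 sample, and the contrast below is a description with no test. Both classes include libraries labelled negative control, for which the labels name no cell.

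The 2-cell-like libraries held 503644 to 3185910 counts (median 1608305) over 4328 to 13177 genes, and the oocyte-like libraries 162539 to 5762563 counts (median 3235838) over 7518 to 17421 genes. Libraries 95 and 24, with the lowest and highest oocyte-like counts, were labelled negative control. A list of 16 cumulus and granulosa cell genes took 0 to 0.0147% of counts in 2-cell-like libraries and 0.00134 to 1.00% in oocyte-like libraries, with 11 of the 39 oocyte-like libraries above 0.1%. Of the 11 listed genes that reached 10 CPM in a class, 10 were at least 2-fold lower in 2-cell-like libraries, and the summed pooled level of the whole list was 45.3 CPM there and 1133 CPM in oocyte-like libraries. Of its defining genes Foxl2, Hsd17b1 and Ptx3 had no count in 2-cell-like libraries. Amh and Has2, under 10 CPM in both classes, went the other way. Their pooled levels were 2.65 and 2.39 CPM in 2-cell-like and 0.0268 and 0.456 CPM in oocyte-like libraries. A list of 6 sperm genes took at most 0.00182% of counts in any 2-cell-like library and at most 0.000440% in any oocyte-like library. Tnp1 and Tnp2 had no count in either class. Prm1, Prm2 and Odf1 had 14, 215 and 41 counts in 2-cell-like libraries and 0, 41 and 34 in oocyte-like libraries. Akap4 went the other way, with 2 counts in 2-cell-like and 81 in oocyte-like libraries.

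The zona pellucida is the extracellular coat that the growing mouse oocyte secretes and that sperm must bind and cross. ZP2 carries the sperm-binding region. After fertilisation cortical granules release ovastacin, the protease encoded by Astl, which cuts ZP2 so that no further sperm bind. At the egg membrane the GPI-anchored receptor JUNO, encoded by Izumo1r, holds IZUMO1 on the sperm, and the tetraspanin CD9 is needed for the membranes to fuse. The proteins are made before or at ovulation, so the RNA levels here say nothing of the coat itself. RNA was captured by its poly(A) tail, so fewer copies and shorter tails cannot be told apart, and CPM is a share of each library's counts, not an amount per cell.

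The upstream sequences of the genes with an entry in the RefSeq promoter table (GRCm38.p6) are shown for Zp3 and Astl, whose levels went together most closely, and for Cd9, which did not follow them. Each run covers the 250 bases before an annotated start, 5′ to 3′ on the gene's strand, with CANNTG, the E-box letters, in capitals. Astl has 2 annotated starts and both are given.
Zp3, chr5:135979855-135980104, plus strand: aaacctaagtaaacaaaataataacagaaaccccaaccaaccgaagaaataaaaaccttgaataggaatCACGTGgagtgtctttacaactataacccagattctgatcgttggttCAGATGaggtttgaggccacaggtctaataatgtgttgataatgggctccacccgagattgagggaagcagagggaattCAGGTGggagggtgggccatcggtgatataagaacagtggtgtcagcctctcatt
Astl, upstream start, chr2:127338389-127338638, plus strand: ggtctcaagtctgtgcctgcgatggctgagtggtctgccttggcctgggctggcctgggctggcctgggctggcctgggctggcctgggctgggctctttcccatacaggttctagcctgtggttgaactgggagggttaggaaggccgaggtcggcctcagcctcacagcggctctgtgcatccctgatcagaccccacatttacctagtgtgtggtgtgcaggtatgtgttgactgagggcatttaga
Astl, downstream start, chr2:127341386-127341635, plus strand: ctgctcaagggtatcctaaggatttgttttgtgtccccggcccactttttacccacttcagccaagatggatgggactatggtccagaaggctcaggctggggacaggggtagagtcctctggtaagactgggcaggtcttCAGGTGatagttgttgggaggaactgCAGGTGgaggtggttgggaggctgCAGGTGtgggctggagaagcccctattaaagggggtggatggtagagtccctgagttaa
Cd9, chr6:125494761-125495010, minus strand: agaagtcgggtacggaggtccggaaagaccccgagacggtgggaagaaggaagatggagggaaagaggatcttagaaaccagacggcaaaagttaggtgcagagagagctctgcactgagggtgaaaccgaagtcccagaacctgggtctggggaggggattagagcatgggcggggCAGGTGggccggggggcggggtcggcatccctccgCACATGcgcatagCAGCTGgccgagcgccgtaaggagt
In the full 300-base window, which runs 50 bases past the start, Zp3 held 4 CANNTG matches, at -181, -134, -55 and 7 bases from the start. The downstream Astl start held 3, at -109, -83 and -59, each spelled CAGGTG, and the upstream start held 0. Cd9 held 3, at -73, -38 and -25. CANNTG reads the same on both strands. Of all 32851 promoters in the table, 72.3% held it at least once and 6.49% held it 4 times or more. TATAA, searched on both strands, was found in the Zp3 window at -160 and -29 and not in the Astl, Cd9 or Izumo1r windows, against 24.9% of all promoters. No match of one motif overlapped the other. In mouse oocytes the transcription factor FIGLA is known to act on the Zp genes through an E-box, but a match of letters here is a description and not a site. Cd9 held 18 CG dinucleotides, Zp3 7, the Astl starts 5 and 1, and Izumo1r 3, where the median promoter held 7.

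The ends of the zona transcripts are shown because the poly(A) tail that the capture read is added there. The last 30 bases of the principal GENCODE M21 transcripts (GRCm38) follow, with the AATAAA signal for cleavage and polyadenylation in capitals.
Zp1: actcAATAAAccattgtttgaaaactcctg
Zp2: gactgcagttaaactcttgtcttacatgtt
Zp3: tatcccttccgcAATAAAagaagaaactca
In Zp3 the stop codon TAA lies inside the AATAAA signal, and 13 bases follow it. The 3′ untranslated region is 34 bases in Zp1 and 49 in Zp2, where AATAAA was not in this window. Shorter ones were found in 5.54% of 21630 genes for Zp1, 6.44% for Zp2 and 4.50% for Zp3, against a median of 779 bases. Astl has 877 bases, Izumo1r 333 and Cd9 395. AATAAA stands in the last 30 bases of 51.3% of these transcripts.

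Zp2 and Astl transcripts were roughly an order of magnitude lower in 2-cell-like than in oocyte-like libraries, Zp3 about 4-fold and Zp1 nearly 3-fold lower. Izumo1r and Cd9, the membrane receptor and the fusion tetraspanin, lay within 2-fold between the classes. The plot of levels by library shows every value.

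**Figure D1:**
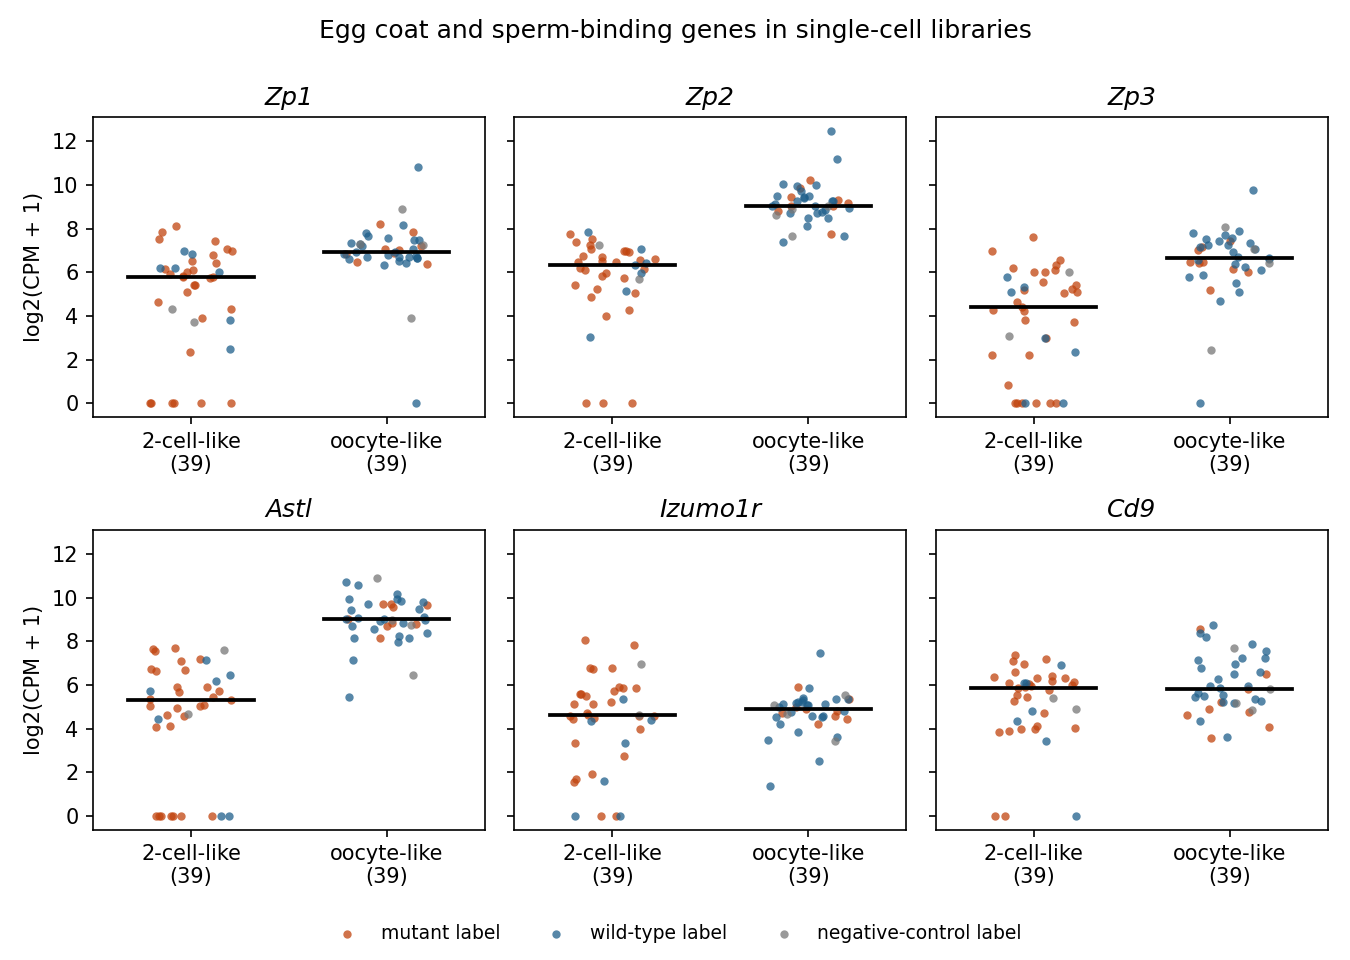
Level of each gene in each library as log2(CPM + 1), for 39 2-cell-like libraries (left in each panel) and 39 oocyte-like libraries (right). Points are single libraries coloured by genotype label and bars are class medians. Within the 2-cell-like range lie 4 oocyte-like libraries for Zp2 and 3 for Astl. Within the oocyte-like range lie 3 2-cell-like libraries for Zp2 and 17 for Astl. Izumo1r and Cd9 have medians of 23.7 and 57.2 CPM in 2-cell-like libraries and 29.0 and 55.7 CPM in oocyte-like libraries.

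Zp2 ranged from 0 to 225 CPM in 2-cell-like libraries (median 80.5) and from 169 to 5708 CPM in oocyte-like libraries (median 530). Of 2-cell-like libraries, 36 of 39 lay below the lowest oocyte-like library, and 35 of 39 oocyte-like libraries lay above the highest 2-cell-like one. Among all 1521 pairs of a 2-cell-like and an oocyte-like library, the 2-cell-like one was lower in 99.4%. Summed over libraries, Zp2 stood at 83.9 CPM (exact Poisson 95% interval 81.7 to 86.1) in 2-cell-like and 770 CPM (765 to 775) in oocyte-like libraries, 9.18-fold lower (8.93 to 9.44). Amplified reads carry no molecular identifiers, so these and all later intervals cover counting error only.

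Zp3, the glycoprotein that pairs with ZP2 in the zona filaments, ranged from 0 to 193 CPM in 2-cell-like libraries (median 20.1) and from 0 to 873 CPM in oocyte-like libraries (median 101). The ranges overlapped: 5 oocyte-like libraries lay above every 2-cell-like one, and the 2-cell-like library was lower in 86.6% of pairs. Pooled Zp3 was 31.6 CPM in 2-cell-like and 134 CPM in oocyte-like libraries, 4.23-fold lower (4.04 to 4.43). Zp1, which cross-links the filaments, ranged from 0 to 274 CPM in 2-cell-like libraries (median 54.5) and from 0 to 1819 CPM in oocyte-like libraries (median 122). It overlapped the most of the zona genes, with 4 oocyte-like libraries above every 2-cell-like one and 81.7% of pairs lower in 2-cell-like. Pooled Zp1 was 68.7 CPM in 2-cell-like and 190 CPM in oocyte-like libraries, 2.77-fold lower (2.68 to 2.86).

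A pair of oocyte-like libraries, both labelled wild-type 2-cell, stood apart in the zona genes. Library 53 held the highest Zp1 (1819 CPM), Zp2 (5708 CPM), Zp3 (873 CPM) and Izumo1r (174 CPM) of its class. Library 61 had no count of Zp1 or Zp3 in 4446517 counts, the lowest Zp2 (169 CPM) and Astl (42.5 CPM), the lowest Mos of its class and the highest cumulus share, 1.00%. Without both, the pooled levels were lower in 2-cell-like libraries 2.06-fold for Zp1, 7.44-fold for Zp2, 3.60-fold for Zp3 and 9.49-fold for Astl. With library 53 alone left out, the Zp1 log2 ratio was -0.98, just short of 2-fold, against -1.47 with all libraries.

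Astl, the protease of the cortical granules, ranged from 0 to 204 CPM in 2-cell-like libraries (median 38.3) and from 42.5 to 1907 CPM in oocyte-like libraries (median 513). The highest value was that of library 95, labelled negative control, from 310 counts, and the next was 1695 CPM in library 53. Of oocyte-like libraries 36 of 39 lay above every 2-cell-like one, and 22 of 39 2-cell-like libraries lay below every oocyte-like one. The pooled level was 59.5 CPM (57.6 to 61.4) in 2-cell-like and 581 CPM (576 to 585) in oocyte-like libraries, 9.76-fold lower (9.45 to 10.1), and by medians 13.4-fold lower. Of the 6 genes Astl had the lowest ratio by both measures.

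Izumo1r, the JUNO receptor that the mouse egg sheds from its membrane after fertilisation, ranged from 0 to 264 CPM in 2-cell-like libraries (median 23.7) and from 1.60 to 174 CPM in oocyte-like libraries (median 29.0). The ranges overlapped throughout: the 2-cell-like library was lower in 51.7% of pairs. The pooled ratio of 1.25 (1.19 to 1.31) and the ratio of medians point in opposite directions, with pooled levels of 42.3 CPM in 2-cell-like and 33.9 CPM in oocyte-like libraries. Cd9 ranged from 0 to 163 CPM in 2-cell-like libraries (median 57.2) and from 10.8 to 430 CPM in oocyte-like libraries (median 55.7). Its pooled level was 57.7 CPM in 2-cell-like and 97.5 CPM in oocyte-like libraries, 1.69-fold lower (1.63 to 1.76), while the medians hardly differed and 60.0% of pairs were lower in 2-cell-like.

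Among 10024 genes with at least 10 CPM pooled in a class, 26.9% were at least 2-fold lower and 22.2% at least 2-fold higher in 2-cell-like libraries, and 49.2% were 2-fold apart either way. Of the 6 genes 4 were at least 2-fold lower and 0 higher. The median log2 ratio was -1.77 over the 6 genes and -0.02 over all genes compared. Lower ratios than that of Astl were found in 4.80% of genes, than that of Zp2 in 5.14%, than that of Zp3 in 11.8%, than that of Zp1 in 19.2%, than that of Cd9 in 31.6% and than that of Izumo1r in 59.7%. None of the 6 was free of overlap between the classes, a property of 0.419% of genes. For comparison Gdf9, an oocyte growth factor, was 11.8-fold lower, H1f8, the oocyte linker histone, 13.5-fold lower and Bub1b, a spindle checkpoint kinase, 69.7-fold lower. Of the same list of 6 oocyte markers, Bmp15 and Oosp1 lay within 2-fold, at 1.85-fold and 1.75-fold lower, and Mos defined the classes.

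**Figure D2:**
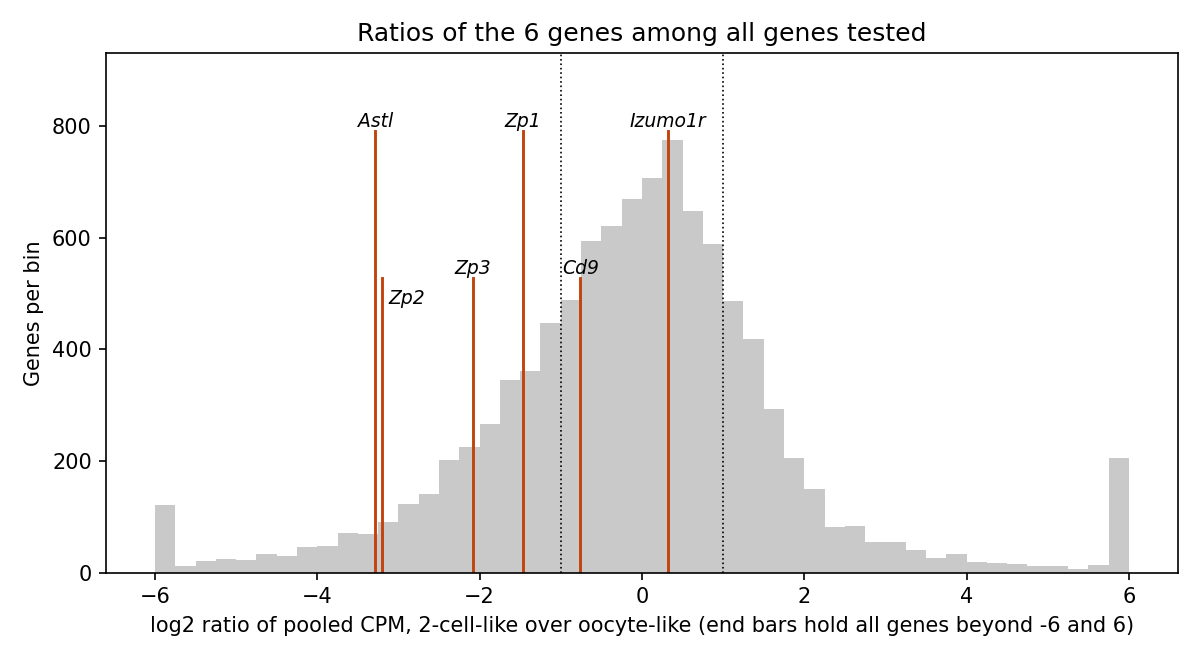
Histogram of log2 ratios of pooled CPM, 2-cell-like over oocyte-like, for 10024 genes (bars, genes per bin), with the 6 genes as vertical lines and 2-fold as dotted lines. Astl and Zp2 lie in the lower tail at -3.29 and -3.20, Zp3 at -2.08, Zp1 at -1.47, and Cd9 and Izumo1r inside the dotted lines.

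Divided by exon length in GENCODE M21 (1228 bases for Cd9 to 2499 for Astl), levels can be roughly set between genes. The lengths used for Izumo1r, Zp2 and Astl were 2228, 2441 and 2499 bases, against 1291, 2221 and 2377 in their principal transcripts. The place of Izumo1r in the 2-cell-like order rests on this choice. In 2-cell-like libraries the median CPM per kilobase was 46.6 for Cd9, 33.0 for Zp2, 27.8 for Zp1, 15.3 for Astl, 15.2 for Zp3 and 10.6 for Izumo1r. The quartile ranges of all neighbours in this order overlapped, and any given pair of neighbours kept the order in 17 to 21 of 39 libraries. In oocyte-like libraries the median CPM per kilobase was 217 for Zp2, 205 for Astl, 76.3 for Zp3, 62.0 for Zp1, 45.4 for Cd9 and 13.0 for Izumo1r. There Astl was above Zp3 in 38 of 39 libraries and Cd9 above Izumo1r in 36, and the quartile ranges of these neighbours did not overlap. Zp2 and Astl did not separate from each other (24 of 39 libraries in that order), nor Zp3 from Zp1 (20 of 39), nor Zp1 from Cd9 (27 of 39). The gene with the highest level per kilobase was Zp2 in 21 oocyte-like libraries, Astl in 12 and Cd9 in 6. In 2-cell-like libraries it was Cd9 in 12, Zp1 in 8, Zp2 in 7, Izumo1r in 6, Astl in 4 and Zp3 in 2.

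The 2-cell-like libraries often lacked single genes altogether. No count was found for Astl in 9 of 39, Zp3 in 8, Zp1 in 6, Izumo1r in 4, Zp2 in 3 and Cd9 in 3, whereas in oocyte-like libraries only library 61 lacked any of the 6. At the class median level the 9 libraries without Astl would have held 33.2 to 97.5 counts of it, and a count of 0 allows at most 3.46 CPM in the shallowest. Of 2-cell-like libraries 20 held all 6 genes, 13 lacked 1, 1 lacked 2, 2 lacked 3 and 3 lacked 4. Few genes of any kind were detected in those lacking 3 or 4, against a class median of 10370. Libraries 5 and 81, which lacked 3, had 8290 and 7508 genes detected. Libraries 33, 41 and 74, which lacked 4, had 7562, 4328 and 6063. The part of incomplete capture in these zeros was not tested. Thinned to 100000 counts a library, Astl had a count in 76.9% of 2-cell-like and 100% of oocyte-like libraries, and Zp3 in 64.1% of 2-cell-like and 94.9% of oocyte-like libraries. Izumo1r, with a median of 3 thinned counts in either class, had a count in 76.9% of 2-cell-like and 89.7% of oocyte-like libraries. The spread over libraries (coefficient of variation) of the 6 genes was 69.0 to 130% in 2-cell-like libraries, where genes of 30 to 90 CPM had a median of 95.0%, and 64.9 to 151% in oocyte-like libraries, or 45.4 to 101% without libraries 53 and 61.

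Cd9 moved with the cumulus cell genes in oocyte-like libraries. In the 11 libraries above 0.1% cumulus share Cd9 ranged from 94.5 to 430 CPM (median 207), and in the 28 at or below it from 10.8 to 187 CPM (median 41.5). Cd81, the related tetraspanin, ranged from 89.3 to 563 CPM (median 175) in the libraries above 0.1% and from 0 to 46.5 CPM (median 6.78) in those at or below it. Cd9 followed the cumulus share with a Spearman rho of 0.76 over 39 oocyte-like libraries, and of 0.41 over the 28, and with 0.10 over 2-cell-like libraries. Without the 11 libraries the pooled Cd9 level in oocyte-like libraries was 50.9 CPM, and the ratio turned to 1.13 (1.08 to 1.18), slightly higher in 2-cell-like libraries. The zona and protease genes went the other way: Zp2 had a median of 357 CPM above the share and 626 CPM at or below it, and Astl 337 CPM above it and 544 CPM at or below it. Without the 11 libraries Zp1 was 3.26-fold, Zp2 10.8-fold, Zp3 4.77-fold and Astl 11.1-fold lower in 2-cell-like libraries, and for Zp2 and Astl the 39 2-cell-like and 28 oocyte-like libraries no longer overlapped, a property of 1.14% of the 9415 genes compared in that set. Izumo1r had a ratio of 1.11 there.

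**Figure D3:**
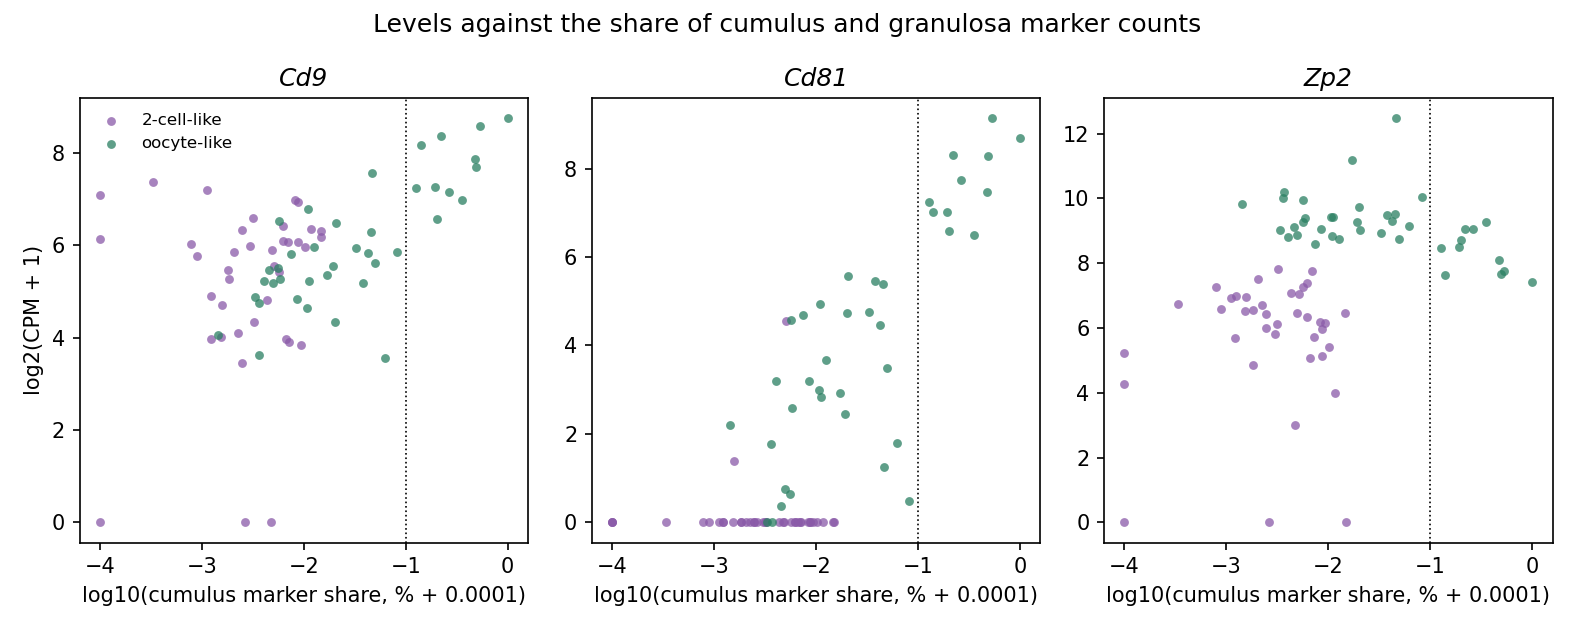
Levels of Cd9, Cd81 and Zp2 as log2(CPM + 1) against the share of counts in 16 cumulus and granulosa genes (log10 of the percent plus 0.0001), for 39 2-cell-like and 39 oocyte-like libraries. Right of the dotted line at 0.1% the 11 oocyte-like libraries hold 94.5 to 430 CPM of Cd9 and 89.3 to 563 CPM of Cd81, while Zp2 is lower there.

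The other genes of egg coat assembly and sperm reception were read from 4 lists with 23 genes, of which 20 reached 10 CPM in a class. In 2-cell-like libraries 8 were at least 2-fold lower, 1 was at least 2-fold higher and 11 lay within 2-fold, with a median log2 ratio of -0.68. Of all 10024 genes compared 26.9% were lower and 22.2% higher by the same fold, and 49.2% were apart either way. Without the 11 libraries of high cumulus share 7 of 19 were lower and 2 higher. Without libraries 53 and 61 the counts were 8 and 1 of 20.

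Among genes that process zona proteins, 3 of 5 were at least 2-fold lower. Furin, a protease that can cut at the processing site of zona precursors, was at 10.0 CPM in 2-cell-like and 120 CPM in oocyte-like libraries, 12.0-fold lower, and 13.1-fold lower without the high cumulus libraries. B4galt1, a galactosyltransferase, was 9.07-fold lower and Pdia3, a disulfide isomerase of the endoplasmic reticulum, 2.98-fold lower, but without those libraries the folds were 2.26 and 1.61. Calr, a chaperone of glycoproteins, had a ratio within 2-fold in both sets. Of the genes that build and trim the GPI anchor, on which JUNO sits, Pgap1 was 4.10-fold and Pigk 2.71-fold lower, and Piga was within 2-fold.

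Among the egg surface genes 3 of 5 were at least 2-fold lower. Cd81 had a count in 2 of 39 2-cell-like libraries and stood at 0.509 CPM there and 62.3 CPM in oocyte-like libraries, 122.5-fold lower, and 22.5-fold lower without the high cumulus libraries. Itgb1, the integrin beta 1 chain, was 5.91-fold lower, or 4.32-fold without them. Itgav was 3.59-fold lower, or 1.31-fold without them. Itga6, an integrin alpha chain, was 1.85-fold lower, at 88.7 CPM in 2-cell-like and 164 CPM in oocyte-like libraries, or 2.04-fold lower without them. Itga9, another alpha chain, had the highest level of the 5 and went the other way. Its ratio was 1.64, at 577 CPM in 2-cell-like and 352 CPM in oocyte-like libraries. The genes of cortical granule fusion mostly lay within 2-fold, 6 of 7, and Rab3a, a small GTPase of granule docking, was 2.72-fold higher at 14.7 CPM in 2-cell-like and 5.39 CPM in oocyte-like libraries. Rab27a, another such GTPase, had a ratio of 1.84, and Actn4, an actin cross-linker, was 1.78-fold lower. Napa, an adaptor of membrane fusion, had a ratio of 1.51, or 3.26 without the high cumulus libraries. Of 18 sperm-side genes only Spam1, a hyaluronidase of the sperm surface, reached 10 CPM, at 21.1 CPM in 2-cell-like and 32.2 CPM in oocyte-like libraries.

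**Figure D4:**
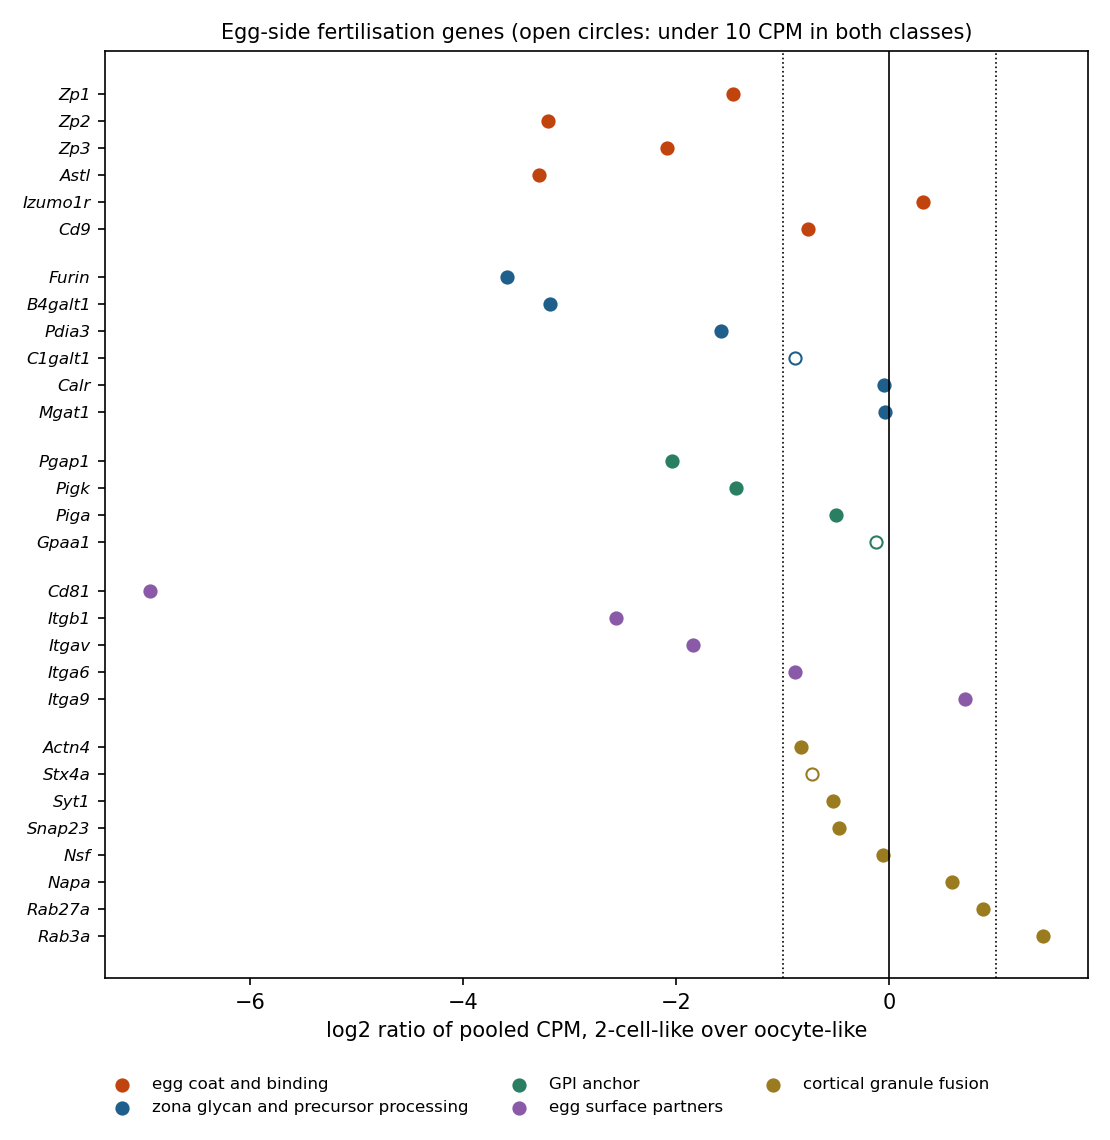
Log2 ratio of pooled CPM, 2-cell-like over oocyte-like, for the 6 genes (top) and the 23 genes of 4 egg-side lists, with dotted lines at 2-fold. Cd81, Furin, Astl, Zp2 and B4galt1 lie farthest to the left, and the cortical granule fusion genes lie around 0.

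Within oocyte-like libraries Astl went with Zp3 and with Zp1, and Zp1 went with Zp3 less closely. Over the 39 libraries the Spearman rho was 0.77 between Zp3 and Astl, 0.70 between Zp1 and Astl and 0.51 between Zp1 and Zp3. Among 6941 genes 5% had a rho above 0.54 with Zp1, 0.42 with Zp3 and 0.47 with Astl. The rho of Zp1 and Zp3 lay under the first of these limits. Over the 28 with low cumulus share the rho of Zp3 and Astl was 0.73, that of Zp1 and Astl 0.51 and that of Zp1 and Zp3 0.37. The rho of Zp2 with Zp3 was 0.20. All 5 pairs with Cd9 had a negative rho, from -0.58 with Zp2 to -0.14 with Izumo1r, but over the 28 libraries they ran from -0.23 to 0.27. In 2-cell-like libraries the highest rho was 0.40, between Astl and Izumo1r. These correlations share libraries and totals and have no test.

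**Figure D5:**
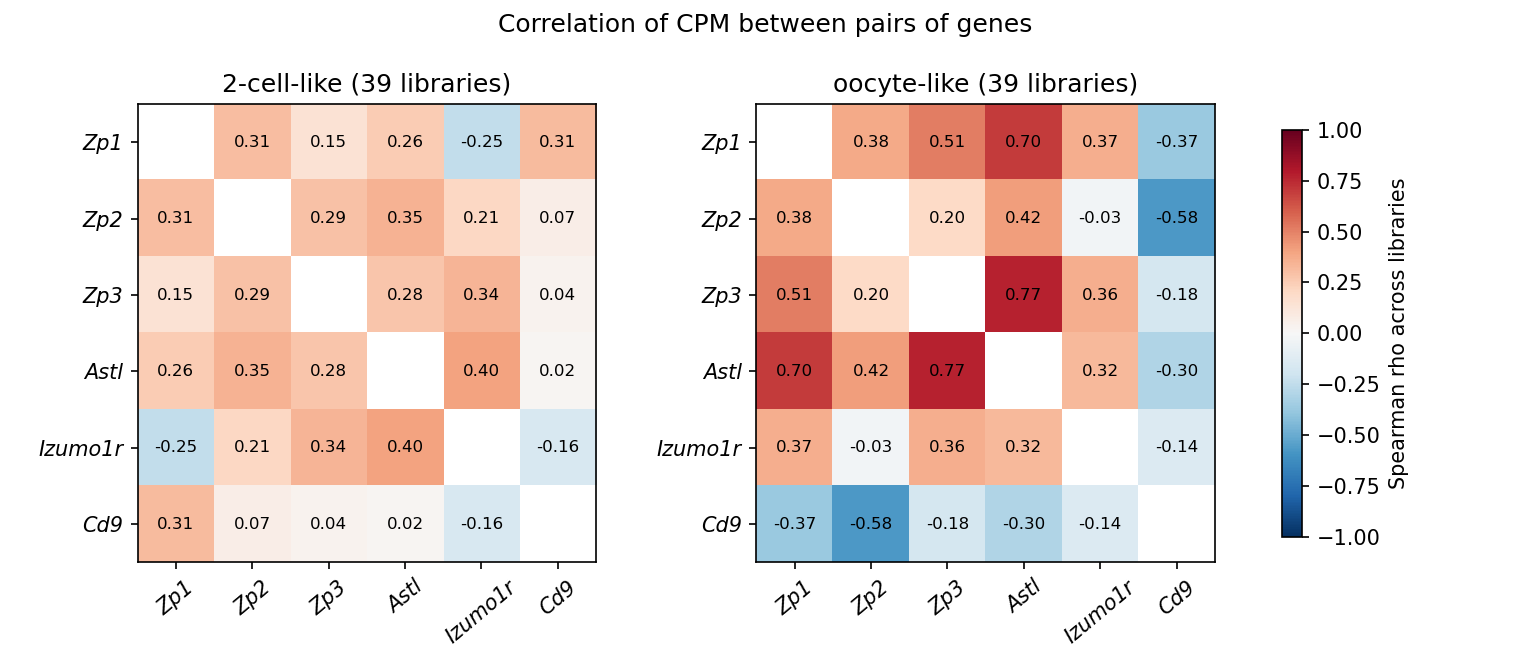
Spearman rho of CPM between each pair of the 6 genes across 39 2-cell-like libraries (left) and 39 oocyte-like libraries (right). The highest values are Zp3 with Astl and Zp1 with Astl in oocyte-like libraries, 0.77 and 0.70.

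For each gene the nearest genes across oocyte-like libraries were found among 6941 with a median of at least 10 CPM. Zp3 lay nearest to Ldhb, a lactate dehydrogenase subunit (rho 0.84), to Tle6, a member of the subcortical maternal complex (0.77), and to Astl. Astl lay nearest to Zp3, Haus4, an augmin subunit (0.75), and Tle6 (0.73). Zp1 lay nearest to Uhrf1, the hemimethylated-DNA reader (0.82), Rffl (0.80) and Aaas (0.77), and Zp2 to Dld, a subunit of mitochondrial dehydrogenases (0.85), Alg13 (0.82) and Nlrp14 (0.82). Cd9 lay nearest to Tuba1b, an alpha tubulin (0.90), Bsg, a membrane glycoprotein (0.89), and Tmed3 (0.88). For Cd9 5% of genes had a rho above 0.75, against 0.41 to 0.54 for the other 5. Izumo1r lay nearest to Zc3h6, Pacsin1 and Bscl2, at 0.63, 0.63 and 0.61. In 2-cell-like libraries, over 5674 genes, the nearest gene had a rho of 0.57 (Xrn1, with Zp2) to 0.65 (Tmem255b, with Izumo1r), and none of the oocyte-like neighbours returned among the 3 nearest.

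The study's own question is the Padi6 genotype, PADI6 being a protein of the cytoplasmic lattices of the mouse egg. The genotype labels stand in the same library names as the stage labels, which went against the class in 49 of 73 kept libraries. Whether the genotype labels hold was not tested, so mutant and wild type name labels only, here and below. Among libraries labelled oocyte, all 19 kept mutant ones were 2-cell-like, against 7 of 19 wild-type ones, so genotype and class cannot be told apart there. In that contrast Zp2 was 7.50-fold, Astl 8.78-fold and Zp3 3.21-fold lower in mutant, Zp1 1.57-fold lower, Izumo1r 1.88-fold higher and Cd9 had a ratio of 1.05. Of 9625 genes 22.2% were at least 2-fold lower and 19.0% higher. Library 45, labelled mutant oocyte, held 225 CPM of Izumo1r, and without it the Izumo1r ratio was 1.08, whereas without wild-type library 10 it was 2.20. Among libraries labelled 2-cell, 11 of 21 mutant and 0 of 14 wild-type ones were 2-cell-like. There Zp1 was 2.30-fold, Zp2 2.41-fold, Zp3 2.27-fold, Cd9 2.33-fold and Astl 1.56-fold lower in mutant and Izumo1r had a ratio of 1.01, where 11.7% of 10108 genes were at least 2-fold lower and 8.53% higher. Without wild-type library 53 the ratios of Zp1, Zp2 and Zp3 were 1.08, 0.88 and 0.74, and none was 2-fold apart, and without wild-type library 61 the log2 ratio of Cd9 was -0.92, short of 2-fold.

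Compared within a class, the pooled levels of the zona genes and Astl over all libraries were less than 2-fold apart between genotype labels. Among oocyte-like libraries, the 9 labelled mutant held 214 to 1180 CPM of Zp2 (median 570) and the 26 labelled wild type 169 to 5708 CPM (median 587). Astl had a median of 517 CPM in mutant and 514 CPM in wild type, and the pooled ratio was 1.08. Zp1, Zp2 and Zp3 were 1.28-fold, 1.44-fold and 1.44-fold lower in mutant by pooled level, but without library 53 the Zp1 ratio was 1.29. Cd9 was 2.23-fold lower, at medians of 28.5 CPM in mutant and 69.4 CPM in wild type, and the fold was 3.46 without mutant library 87. Without wild-type library 61 the Cd9 ratio was 0.54, short of 2-fold. In this contrast 15.8% of 9098 genes were at least 2-fold lower and 0.429% higher. High cumulus share was found in 1 of the 9 mutant and 9 of the 26 wild-type libraries, and over the other 8 and 17 Cd9 was 1.81-fold lower in mutant, at 10.8 to 88.9 CPM against 11.2 to 187 CPM in wild type. All 9 mutant libraries carried the 2-cell label, against 14 of the 26 wild-type ones.

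Among 2-cell-like libraries Izumo1r differed most between genotype labels by pooled level. The 30 mutant libraries were 19 labelled Padi6P620A/P620A and 11 labelled Padi6MatP620A/+. They ranged from 0 to 264 CPM of Izumo1r (median 29.6) and the 7 wild-type ones from 0 to 40.5 CPM (median 9.02). The ranges overlapped, with the wild-type libraries in the lower part and 2 libraries of each label at 0. Pooled, Izumo1r was at 48.5 CPM in mutant and 9.73 CPM in wild type, a ratio of 4.99 (4.13 to 6.07), which lay between 3.93 and 7.28 with any single library left out. At least 2-fold higher in mutant were 20.6% of 9269 genes, and 7.43% were lower. All 7 wild-type libraries carried the oocyte label. Against them the 19 mutant libraries with the oocyte label had a ratio of 3.78, or 2.17 without library 45, and the 11 with the 2-cell label 8.09. Zp3 had a ratio of 1.85 (1.61 to 2.14), with medians of 22.2 CPM in mutant and 7.02 CPM in wild type. Without wild-type library 2, 4 or 6 the Zp3 ratio was 2.29, 2.34 or 2.18, past 2-fold. By pooled level Zp1, Zp2, Astl and Cd9 had ratios of 1.09, 0.94, 0.96 and 1.15, and the medians of Cd9 were 60.4 CPM in mutant and 27.3 CPM in wild type. Without wild-type library 4 the log2 ratio of Astl was 0.58, against -0.06 with it. Median depth was 1580733 counts and 10476 genes in mutant and 1716372 counts and 10241 genes in wild type.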

How the data were processed

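The deposited table holds raw gene counts, in whole numbers and not normalized, for 96 libraries of 1 picked cell or a negative control each. Per the labels' protocols, polyadenylated RNA was captured on beads, copied with template switching, amplified by PCR and tagmented, and no molecular identifiers are named. Per the submitters' processing notes, the authors used Trim Galore 0.4.4, HISAT2 2.1.0, the GRCm39 (mm39) build and DESeq2. The read counter and annotation are not given in the sources used here, and near-identical or overlapping genes were not resolved.

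The 48 entries that repeated a symbol were summed, which left 36935 symbols. The 6 genes, the 10 lists and the class rule were chosen with earlier results of these data known. Libraries were kept with at least 100000 counts and 4000 genes. Doublets were not searched for, as the protocols have cells picked singly. However, 11 of the 39 oocyte-like libraries had a cumulus share above 0.1%, and mixed content was not tested. No kept libraries were identical (highest Pearson r 0.97). A level was a gene's CPM per library, or summed counts over summed totals of a class, with an exact Poisson 95% interval and, for ratios, an exact conditional binomial one. Genes with at least 10 CPM pooled in a class were compared, and at least 2-fold was called. Where a class had no count, 3 counts over the class stood in. With 1 sample per class no p-value is given. Genes were named by rule: the 6 genes, Mos and Zfp352, up to 4 compared genes of each list with the largest ratios either way plus genes whose levels stand beside one of the 6, and the 3 nearest genes by Spearman rho. Alternatives used edgeR 4.0.16 TMM factors and DESeq2 1.42.0 size factors in R 4.3.3. Python 3.11.15, numpy 2.4.6, pandas 2.3.3, scipy 1.17.1 and matplotlib 3.10.9 were used. Ratio intervals were checked only on simulated Poisson counts, the model they assume, which says nothing of the spread between libraries. Sequences come from RefSeq (GRCm38.p6) and GENCODE M21, an earlier build than the authors', so no gene coordinates of the counts are given.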

Additional observations from a re-analysis of the deposited data

Results flagged for a closer look

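Cd9 was far above the rest of its label group in 2 oocyte-like libraries, out of 18 groups of values examined. About 1 in 20 groups would be flagged by chance if values were normally spread, which was not checked. The 1819 CPM of Zp1 in library 53 was not among the values flagged. Library 87, labelled mutant 2-cell, held 382 CPM of Cd9, and the next of its 9 libraries 88.9 CPM. Library 23, labelled negative control, held 207 CPM, and the next of its 4 libraries 55.4 CPM. Their cumulus marker shares were 0.534% and 0.491% of counts, both among the 11 oocyte-like libraries above 0.1%, and the part of this in the Cd9 level was not tested.

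Counts of the 6 genes also appeared in libraries that entered neither class. Library 86, labelled mutant 2-cell, had no count of Mos or Zfp352 and a cumulus share of 0.638%. It held 438 CPM of Cd9, 4.21 CPM of Izumo1r and 3.37 CPM of Zp3, and no count of Zp1, Zp2 or Astl in 2374644 counts. The others were not kept for low depth or few genes. Library 58, labelled wild-type 2-cell, held 1347 CPM of Cd9 from 225 counts, and library 64, of the same label, 233.5 CPM from 76 counts. Library 66, also labelled wild-type 2-cell, held 473 CPM of Zp2 and 379 CPM of Astl, from 20 and 16 counts. Library 15, labelled wild-type oocyte, held 1267 CPM of Astl, 392 CPM of Zp2 and 151 CPM of Zp3 from 42, 13 and 5 counts. Library 1, of the same label, held 111 CPM of Zp3 and 21.2 CPM of Zp2, with 3775 genes detected. Library 30, labelled mutant oocyte, held 42.2 CPM of Astl from 28 counts.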

How the results depend on the processing

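No paired analysis was possible because the labels number every cell uniquely and no groups share a replicate number. Over 15 alternatives each (scaling, library filters, class limits, libraries left out), the 2-cell-like over oocyte-like log2 ratio ran from -3.74 to -3.12 for Astl, -3.43 to -2.72 for Zp2, -2.33 to -1.79 for Zp3 and -1.70 to -0.98 for Zp1, which stayed at least 2-fold lower in 14. Cd9 ran from -0.98 to 0.18, and its sign turned by medians and without high cumulus libraries. Izumo1r ran from -0.29 to 0.53, and its sign turned by medians. With each library left out in turn, log2 ratios were -3.46 to -3.19 for Astl, -3.27 to -2.85 for Zp2, -2.31 to -1.79 for Zp3, -1.66 to -0.98 for Zp1, -0.85 to -0.54 for Cd9 and 0.01 to 0.53 for Izumo1r. Genes at least 2-fold higher numbered 2229, and 2-fold lower 2699. They numbered 10196 and 6534 with no filter on low levels, 825 and 1278 at 4-fold, and 1484 genes were higher by medians. Leaving out each library in turn gave 2193 to 2306 higher and 2462 to 2741 lower. TMM moved the median log2 ratio of all genes by -0.26, DESeq2 size factors by -0.14, medians by -0.35 and leaving out high cumulus libraries by 0.23. Without wild-type 2-cell library 53 the mutant over wild-type log2 ratio of Zp1 among 2-cell labels turned to 0.12, against -1.20 with all libraries and -1.38 without library 61. Thinned to 100000 counts a library, Zp3, Astl and Izumo1r had medians of only 2, 3 and 3 counts in 2-cell-like libraries. They had a count in 25, 30 and 30 of these 39 libraries when thinned, and in 31, 30 and 35 at full depth.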
